A study of Mus musculus with 18 samples.

Results

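The trophectoderm is the outer epithelium of the blastocyst, from which the trophoblast of the placenta forms. Its 8 marker genes *Cdx2*, *Gata3*, *Eomes*, *Tfap2c*, *Elf5*, *Hand1*, *Krt8* and *Krt18* were described in nascent RNA from WT and *Tet2*-KO mouse embryonic stem (mES) cells. They were taken by symbol, through the Ensembl identifiers of the GENCODE M21 annotation, and all 8 were found among the 54446 genes counted. In each library, RNA made in the presence of 1 mM 5-ethynyl uridine (EU, a uridine analogue that is joined to biotin and pulled down) was sequenced after 10, 20 or 40 min of labelling. Each of the 6 groups of genotype and time had 3 replicates. Both genotypes were grown in serum and LIF with the inhibitors CHIR99021 and PD0325901, and feeder cells were passaged away beforehand. A single WT and a single *Tet2*-/- line were used, so p-values measure the spread between dishes of 1 line per genotype.

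In the embryo, outer cells keep Hippo signalling low, so that YAP1 acts with TEAD4 and, together with Notch signalling, turns on *Cdx2* and *Gata3*. *Eomes*, *Elf5* and *Tfap2c* then belong to the network that keeps trophoblast stem cells, *Hand1* acts in giant cells, and *Krt8* and *Krt18* encode the partner keratins of simple epithelia. Embryonic stem cells stand for the inner lineage, where OCT4 (*Pou5f1*) and repressive chromatin hold the trophoblast genes down and where *Elf5* is known for DNA methylation at its promoter. TET2 oxidises 5-methylcytosine.

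Each value is given on one of 2 scales. Reads per 1000 ERCC reads relate a gene to the ERCC spike-in RNA, which was added in proportion to total RNA, and RPM give its share, as reads on the gene in 1000000 reads counted on genes. Between 17931614 and 23069143 reads were counted on genes per library, and 44162 to 512186 on the ERCC RNA. All labelled RNA rose on the spike-in scale, from 42.8 to 50.8 gene reads per ERCC read in WT and from 89.6 to 100.7 in *Tet2*-KO at 10 min, to 239 to 259 in WT and 366 to 429 in *Tet2*-KO at 40 min. Reads on *Tet2* itself persisted under the *Tet2*-KO label, with 535 ± 5.1 (SD, n = 3) RPM at 10 min against 595.6 ± 5.7 in WT. At 20 min they were 588.8 ± 6.5 against 690.4 ± 10.5 RPM, and at 40 min 638.6 ± 4.3 against 737.0 ± 3.4. A total over the whole gene cannot show whether an exon was removed, so the genotypes are those of the labels. Counts of bulk RNA also do not separate fewer cells of a type from less RNA per cell.

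The promoters of *Gata3*, the marker that was higher in *Tet2*-KO on both scales, and of *Eomes*, the marker whose share was lower, are shown as RefSeq gives them on GRCm38.p6, from 250 bases before to 50 bases after the start, read 5′ to 3′ on the strand of the gene with each CG in capitals. The *Gata3* window is chr2:9878551-9878850 on the minus strand, inside the longer GENCODE gene, and the *Eomes* window is chr9:118477939-118478238 on the plus strand.
Gata3: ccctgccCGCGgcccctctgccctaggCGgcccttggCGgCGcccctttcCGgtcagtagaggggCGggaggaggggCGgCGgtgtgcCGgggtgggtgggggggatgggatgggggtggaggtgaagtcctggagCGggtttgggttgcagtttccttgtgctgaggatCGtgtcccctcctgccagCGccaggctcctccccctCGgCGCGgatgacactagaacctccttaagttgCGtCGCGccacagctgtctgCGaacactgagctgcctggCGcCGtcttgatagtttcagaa
Eomes: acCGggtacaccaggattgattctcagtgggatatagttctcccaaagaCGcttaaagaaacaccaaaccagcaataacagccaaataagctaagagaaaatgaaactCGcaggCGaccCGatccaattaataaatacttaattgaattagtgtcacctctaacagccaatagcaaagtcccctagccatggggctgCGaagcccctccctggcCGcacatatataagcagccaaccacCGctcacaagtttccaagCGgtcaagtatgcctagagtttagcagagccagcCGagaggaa
The *Gata3* window held 22 CG and the *Eomes* window 10, against a median of 7 over 32851 RefSeq promoter windows, of which 78.48% and 58.62% held as many or fewer. *Cdx2* and *Krt18* held 18 and 17, *Krt8* 6, and the windows of the 2 *Elf5* starts 3 and 10. Searched on both strands, GCCNNNGGC, which reads alike on each strand and is bound by AP-2 factors such as TFAP2C, occurred 3 times in the *Gata3* window, once in those of *Cdx2* and *Krt18*, and in 16.59% of all windows. The GATA motif AGATAA occurred once, in the *Krt8* window, and in 11.18% of all windows. The TATA motif TATAAA occurred 2 times in the *Krt8* window, as overlapping matches with 1 on each strand, and in 13.62% of all windows. Matches of different motifs did not overlap, and all of them describe letters only. *Tfap2c* and *Hand1* had no entry.

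To compare genes, reads were divided by the kilobases of gene body that no other gene shares on the same strand. This rests on the inference, drawn from the values and not stated in the sources used here, that introns were counted and reads over such overlaps were not. In WT the order of these levels, in RPM per kilobase, was *Tfap2c* 1.61 ± 0.17 (SD over 9 libraries), *Eomes* 0.741 ± 0.16, *Krt18* 0.341 ± 0.11, *Krt8* 0.200 ± 0.047 and *Gata3* 0.155 ± 0.032. The other 3 were at least 10 times lower, with *Cdx2* at 0.0130 ± 0.0077, *Hand1* at 0.0109 ± 0.025 and *Elf5* at 0.00590 ± 0.0036. The SDs overlapped between *Krt18* and *Krt8*, between *Krt8* and *Gata3*, and among *Cdx2*, *Hand1* and *Elf5*. The order depends on that choice, since per kilobase of exons *Gata3* in WT had 1.03 ± 0.22, above *Krt18* at 0.912 ± 0.29 and *Krt8* at 0.795 ± 0.19 in value. Per kilobase of gene body in *Tet2*-KO, *Gata3* stood between *Eomes* and *Krt18* at 0.428 ± 0.065, within the spread of *Eomes* (0.463 ± 0.058) and above *Krt18* at 0.253 ± 0.072. *Tfap2c* was again first at 1.49 ± 0.15, *Krt8* had 0.161 ± 0.052, and *Cdx2*, *Elf5* and *Hand1* were at or under 0.0200. The most abundant marker was thus far under the pluripotency factors, since *Nanog* had 43.5 ± 1.8 in WT and 40.1 ± 2.0 in *Tet2*-KO and *Pou5f1* 18.8 ± 2.7 and 20.9 ± 2.9.

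**Figure D1:**
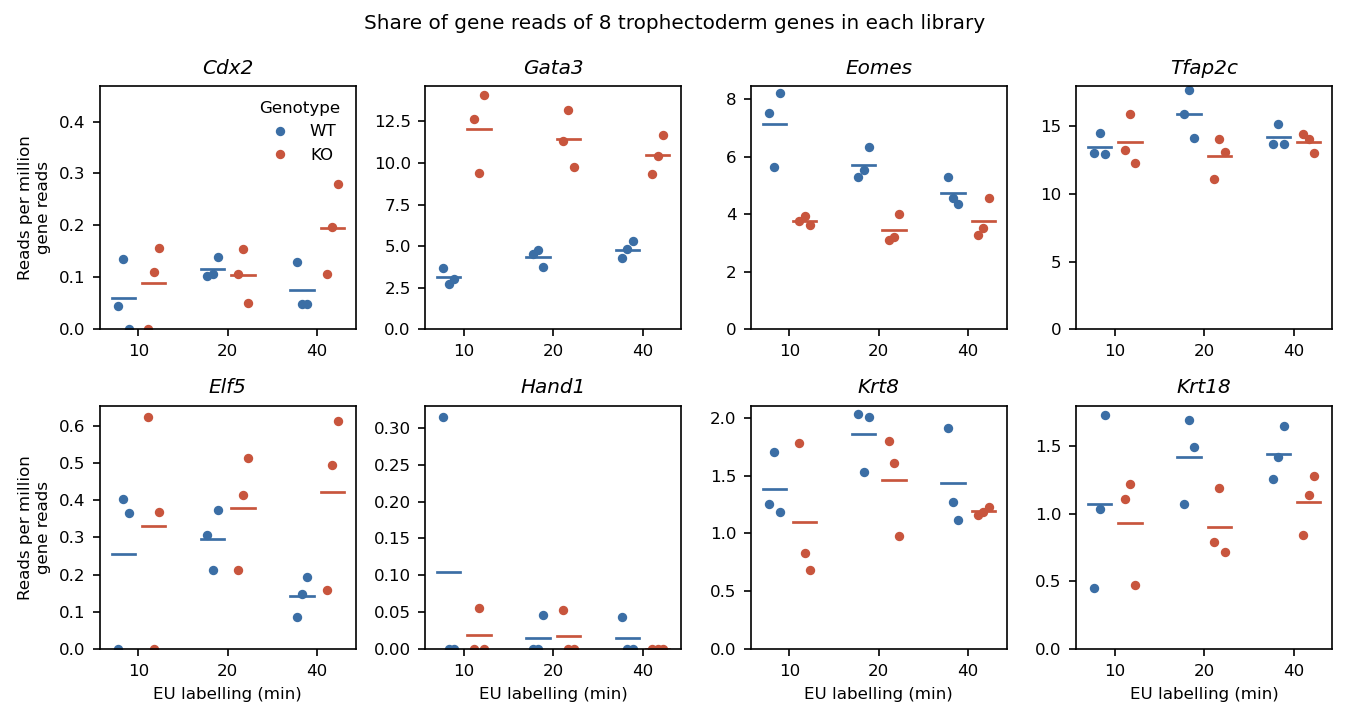
Share of gene reads in RPM (vertical axis, from 0, with its own range for each gene) of the 8 trophectoderm markers against minutes of EU labelling, with a point for each of 18 libraries and a bar at the mean of 3, WT in blue and *Tet2*-KO in red. All *Gata3* points of *Tet2*-KO lie above those of WT at each time, and the *Eomes* points of *Tet2*-KO lie below those of WT at 10 and 20 min.

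*Gata3*, a zinc-finger factor that TEAD4 turns on in parallel with *Cdx2*, was the marker that was called higher in *Tet2*-KO on both scales. It lies on chromosome 2 from 9857078 to 9890034 of mm10, minus strand. WT libraries held 82, 61 and 66 reads at 10 min, 89, 90 and 81 at 20 min and 99, 98 and 109 at 40 min. *Tet2*-KO libraries held 284, 169 and 268 reads at 10 min, 214, 255 and 190 at 20 min and 177, 211 and 209 at 40 min. Every *Tet2*-KO library was above every WT library, also after scaling to depth. Its share was 3.14 ± 0.48, 4.35 ± 0.51 and 4.79 ± 0.50 RPM in WT (SD, n = 3) and 12.0 ± 2.4, 11.4 ± 1.7 and 10.5 ± 1.2 in *Tet2*-KO at 10, 20 and 40 min. Averaged over the times, the share was 2.80-fold higher, a log2 fold change of 1.49 (SE 0.093, adjusted p = 1.76e-15, by the quasi-likelihood test of edgeR adjusted over 19910 genes after Benjamini and Hochberg, as for all adjusted p-values here). Per ERCC read it was 4.67-fold higher, with a log2 fold change of 2.22 (SE 0.098, adjusted p = 4.04e-74), where the median of all genes was 0.70. Of its 32957 bases, 6500 are shared with 9230102O04Rik on the same strand, where reads were inferred to be counted for neither gene. The nearest tested gene after it in coordinates, *Taf3* at 24.5 kb, chosen after its values were seen, had a log2 fold change in share of -0.038 (SE 0.017). The nearest tested gene before it, Gm13219 at 409 kb with 1 to 14 reads, had -0.65 (SE 0.38, adjusted p = 0.145).

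The *Gata3* difference was largest in value at the shortest labelling. Its share was 3.83-fold, 2.63-fold and 2.19-fold higher in *Tet2*-KO at 10, 20 and 40 min, with log2 fold changes of 1.94, 1.40 and 1.13. In WT the share rose from 10 to 40 min by 0.60 on the log2 scale (adjusted p = 0.00598), and in *Tet2*-KO the log2 change was -0.20 (adjusted p = 0.297). The difference between the genotypes in this change was -0.81 (SE 0.23, adjusted p = 0.0221), in a comparison where 3.36% of genes were called lower and 5.89% higher. That call was lost without WT replicate 2 at 10 min (adjusted p = 0.0582), WT replicate 3 at 40 min (0.0708), *Tet2*-KO replicate 3 at 10 min (0.0731) or *Tet2*-KO replicate 1 at 40 min (0.0660). Per ERCC read the fold over WT was 7.86, 3.68 and 3.51, and the change from 10 to 40 min was -1.16 (SE 0.24, adjusted p = 0.000209), where 19.3% of genes were called lower, 0.552% higher, and the median was -0.29.

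*Cdx2*, the homeodomain factor that specifies the trophectoderm, gave almost no reads. It lies on chromosome 5 from 147300805 to 147307270, minus strand. The WT libraries held 1, 3 and 0 reads at 10 min, 2, 2 and 3 at 20 min and 3, 1 and 1 at 40 min, which is at or under the floor of 3 counts used here. The *Tet2*-KO libraries held 0, 2 and 3, then 2, 3 and 1, then 2, 4 and 5. The genotypes overlapped at each time in share, while per ERCC read the 3 *Tet2*-KO libraries at 40 min were above those of WT, at 2 to 5 reads. *Cdx2* did not pass the filter on low counts. Summed over 9 libraries, 22 reads in *Tet2*-KO against 16 in WT gave a ratio of shares of 1.50 with a 95% interval of 0.754 to 3.06 for counting error only. A difference in *Cdx2* within that interval was not detectable at this depth.

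*Eomes*, a T-box factor of trophoblast stem cells that is also used in the primitive streak, was the marker with a lower share in *Tet2*-KO. It lies on chromosome 9 from 118478212 to 118486132, plus strand. Reads in WT were 168, 126 and 180 at 10 min, 104, 105 and 136 at 20 min and 122, 93 and 90 at 40 min. In *Tet2*-KO they were 85, 71 and 69, then 59, 62 and 78, then 62, 71 and 82. The WT mean was highest at 10 min, although WT replicate 2 at 10 min (126 reads, 5.66 RPM) lay below WT replicate 3 at 20 min (136 reads, 6.33 RPM). The genotypes did not overlap in share at 10 and 20 min but did at 40 min. The share was 7.14 ± 1.3, 5.72 ± 0.54 and 4.74 ± 0.49 RPM in WT and 3.78 ± 0.16, 3.45 ± 0.49 and 3.78 ± 0.69 in *Tet2*-KO (SD, n = 3). Averaged over the times its log2 fold change in share was -0.66 (SE 0.10, adjusted p = 1.01e-06). By time it was -0.92 at 10 min (adjusted p = 3.58e-05), -0.73 at 20 min (0.00108) and -0.33 at 40 min (0.147). Per ERCC read the averaged value was 0.078 (SE 0.12, adjusted p = 0.524), so *Eomes* lay near WT on the spike-in scale while the median gene was 0.70 higher. The share in WT fell by 0.59 on the log2 scale from 10 to 40 min (adjusted p = 0.00364), whereas the value in *Tet2*-KO was -0.0015 (adjusted p = 0.996), and the difference between these changes, 0.59 (SE 0.25), did not pass (adjusted p = 0.140). Over the gene, 574 of its 7921 bases lie opposite Gm33460.

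Cells of other kinds were checked beside *Eomes*. The streak and mesoderm markers gave at most 3.11 RPM in sum in any library, and *Gsc*, *Evx1*, *Wnt3* and *Tbx6*, the 4 of 9 that were tested, had log2 fold changes in share from -0.66 to 0.20 with adjusted p from 0.172 to 0.868 in edgeR. Among those not tested, *T* summed to 63 reads over the WT libraries and 29 over *Tet2*-KO. The sums were 43 and 52 for *Mixl1*, 5 and 11 for *Mesp1*, 4 and 4 for *Lhx1*, and 4 and 5 for *Msgn1*. The 9 fibroblast markers summed to 21.5 to 23.0 RPM in WT at 10 min, 8.06 to 8.40 at 20 min and 6.46 to 7.78 at 40 min, and to 7.33 to 9.08, 12.4 to 13.9 and 6.48 to 7.81 in *Tet2*-KO. *Lum* and *S100a4* had at most 3 reads in any library. The WT group at 10 min had the highest mean *Eomes* share and the highest fibroblast sums, and the part of those reads in the result was not tested.

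*Tfap2c*, an AP-2 factor that opens trophectoderm enhancers and is also made by naive embryonic stem cells and germ cells, had the most reads of the 8. It lies on chromosome 2 from 172549593 to 172558622, plus strand. Reads ranged from 282 to 334 in WT (median 310) and from 210 to 298 in *Tet2*-KO (median 272). Its share was 13.5 ± 0.86, 15.9 ± 1.8 and 14.2 ± 0.85 RPM in WT and 13.8 ± 1.9, 12.8 ± 1.5 and 13.8 ± 0.73 in *Tet2*-KO at 10, 20 and 40 min (SD, n = 3). The genotypes overlapped at 10 and 40 min, and all *Tet2*-KO libraries were lower at 20 min. The averaged log2 fold change in share was -0.11 (95% interval -0.23 to 0.019, adjusted p = 0.160). At 20 min it was -0.31 (adjusted p = 0.0247), a call that was lost with TMM scaling and without WT replicate 1 or 2 or *Tet2*-KO replicate 1 at that time. Per ERCC read *Tfap2c* was 1.54-fold higher (log2 0.62, SE 0.079, adjusted p = 5.71e-14), close to the median of all genes. On that scale 4 of the 6 markers tested were called higher and 0 lower, beside 80.5% of all genes higher and 4.15% lower, so the count of markers was not above that of genes at large. *Elf5*, among those 4 and those 6, passed the filter only through *Tet2*-KO libraries. On the share scale 1 of 6 was called higher and 1 lower, beside 24.6% and 32% of all genes. DESeq2 likewise called 0 lower per ERCC read, and 0 were lower at an unadjusted p under 0.05. The median over the 6 that passed the filter was 0.52 per ERCC read and -0.21 in share, beside -0.037 in share for all genes.

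*Elf5*, an ETS factor that marks committed trophoblast, was near the lower limit of counting. It lies on chromosome 2 from 103411688 to 103450989, plus strand, the longest of the 8 genes. WT libraries held 0, 9 and 8 reads at 10 min, 6, 4 and 8 at 20 min and 2, 3 and 4 at 40 min. *Tet2*-KO libraries held 14, 0 and 7, then 4, 8 and 10, then 3, 10 and 11. With at most 9 reads in any WT library and a minimum count of 10, *Elf5* passed the filter only through *Tet2*-KO libraries. It was thus tested because of the group where it is high, so its calls cannot serve as support for a rise. In share the genotypes overlapped at every time, and the averaged log2 fold change of 0.77 did not pass (95% interval -0.13 to 1.66, adjusted p = 0.154). Per ERCC read it was 1.49 (SE 0.41, 95% interval 0.70 to 2.29, adjusted p = 0.000387), where the median of all genes was 0.70. By time it was 1.41 at 10 min (adjusted p = 0.0461), 0.84 at 20 min (0.289) and 2.22 at 40 min (0.00531). The medians of all genes at these times were 0.96, 0.45 and 0.67. At 40 min all *Tet2*-KO libraries were above all WT libraries on this scale. The 10 min value rests on single libraries, since it was 0.85 without WT replicate 1 and 0.57 without *Tet2*-KO replicate 1, and the call was lost in 5 of the 18 fits that left out a library.

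*Hand1*, a basic helix-loop-helix factor of giant cells that also acts in lateral mesoderm and heart, was at or under 1 read in 17 of 18 libraries. It lies on chromosome 11 from 57828705 to 57832818, minus strand. WT replicate 1 at 10 min held 7 of the 9 WT reads, and the *Tet2*-KO libraries held 2 reads in all. The ratio of summed shares, *Tet2*-KO over WT, was 0.243 with a 95% interval of 0.0255 to 1.17 for counting error only, so no difference was detectable at this depth.

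*Krt8* and *Krt18* encode the type II and type I keratins that pair into filaments in the trophectoderm, and they lie 23.7 kb apart on chromosome 15, *Krt8* from 101996698 to 102004482 on the minus strand and *Krt18* from 102028180 to 102032027 on the plus strand. *Krt8* had 23 to 44 reads in WT (median 29) and 13 to 40 in *Tet2*-KO (median 22). *Krt18* had 10 to 38 reads in WT (median 29) and 9 to 25 in *Tet2*-KO (median 22). The genotypes overlapped for both genes at each time and on both scales. In share, the averaged log2 fold change was -0.31 for *Krt8* (95% interval -0.69 to 0.069, adjusted p = 0.176) and -0.41 for *Krt18* (-0.86 to 0.030, adjusted p = 0.121). Per ERCC read *Krt8* reached 0.42 (SE 0.20, adjusted p = 0.0445), a call lost in 11 of the 18 fits that left out a library and in 7 of 8 other settings, and *Krt18* had 0.31 (SE 0.22, adjusted p = 0.176). *Krt18* was called higher at 10 min per ERCC read (log2 0.84, adjusted p = 0.0413), but not with DESeq2, nor without WT replicate 1 (0.47), *Tet2*-KO replicate 1 (0.67) or *Tet2*-KO replicate 2 (0.67) of that time. Of *Krt8*, 271 bases lie opposite Gm36026, and an annotated processed copy, *Krt8-ps*, lies on chromosome 7, so reads that the copy shares with *Krt8* are uncertain.

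**Figure D2:**
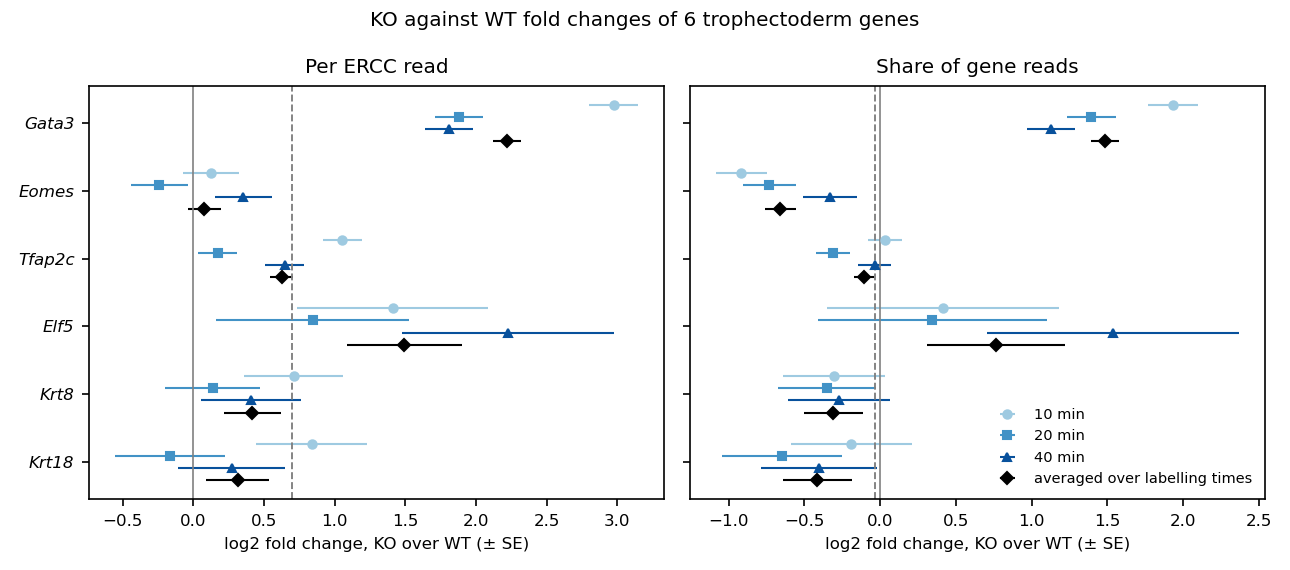
Log2 fold change of *Tet2*-KO over WT (horizontal axes, bars are SE) for the 6 trophectoderm markers that passed the filter, per ERCC read on the left and as share of gene reads on the right, at each labelling time and averaged, with the median of all genes for the averaged contrast as a dashed line. *Gata3* lies to the right of that line at all times on both scales, from 1.81 to 2.98 per ERCC read and from 1.13 to 1.94 in share, and *Eomes* to its left.

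At the single times, the markers called per ERCC read were *Gata3*, *Tfap2c*, *Elf5* and *Krt18* at 10 min, *Gata3* at 20 min and *Gata3*, *Tfap2c* and *Elf5* at 40 min, all higher in *Tet2*-KO, beside 79%, 53.7% and 68.2% of all genes called higher and 2.1%, 4.86% and 2.84% lower. Of these markers, *Elf5* passed the filter only through *Tet2*-KO libraries. In share, *Gata3* was called higher at each time, beside 17.9%, 17.6% and 18.9% of genes. *Eomes* was called lower at 10 and 20 min and *Tfap2c* at 20 min, beside 27.1%, 20.7% and 19.6% of genes called lower at 10, 20 and 40 min. *Gata3* was the one marker of the 8 whose genotypes did not overlap at any of the 3 times, which held in share for 11.8% of the tested genes in the higher direction and 13.9% in the lower, and per ERCC read for 51.6% and 1.56%.

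With longer labelling the spike-in scaled level of the markers rose in both genotypes. From 10 to 40 min, 5 of 6 were called higher in WT and 6 of 6 in *Tet2*-KO, beside 96.7% and 94.7% of all genes higher and 0.01% and 0.00502% lower. The log2 rise in WT was 3.01 for *Gata3*, 2.83 for *Krt18*, 2.47 for *Tfap2c*, 2.44 for *Krt8* and 1.82 for *Eomes*, around a median of 2.26 over all genes, and *Elf5* had 1.49 (adjusted p = 0.0708). In *Tet2*-KO the rise was 1.84 for *Gata3*, 2.05 for *Eomes*, 2.06 for *Tfap2c*, 2.14 for *Krt8*, 2.26 for *Krt18* and 2.30 for *Elf5*, around a median of 1.996. In share, *Gata3* was called higher and *Eomes* lower in WT, beside 16.1% and 29.5% of genes. In *Tet2*-KO 0 of 6 were called by edgeR or DESeq2, beside 16.5% and 20% of genes, and 0 passed an unadjusted p under 0.05.

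The study took as its synthesis rate a slope of attomoles set by the spike-ins. Here the slope is of reads per 1000 ERCC reads on labelling time, a different quantity, and it was larger in *Tet2*-KO for each of the 6 markers that passed the filter. For *Gata3* it was 0.0335 ± 0.0032 (SE, 9 libraries) reads per 1000 ERCC reads per min in WT and 0.0983 ± 0.0099 in *Tet2*-KO, a ratio of 2.94. *Tfap2c* went from 0.0906 ± 0.013 to 0.140 ± 0.011 and *Eomes* from 0.0263 ± 0.0038 to 0.0382 ± 0.0044, ratios of 1.54 and 1.45. The ratio was 1.33 for *Krt8* and 1.17 for *Krt18*, and all genes together had 1.55, so that *Gata3* alone of these 5 was above the total in value. *Elf5* had 0.00060 ± 0.00043 in WT, a slope too close to its error for a ratio to be read, and it passed the filter only through *Tet2*-KO. With lines through the origin the ratios were 3.64 for *Gata3*, 1.47 for *Tfap2c*, 1.16 for *Eomes*, 1.28 for *Krt8* and 1.15 for *Krt18*. The *Eomes* ratio thus depends on the intercept, and its averaged fold per ERCC read was 1.06. These slopes are descriptions and were not tested.

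**Figure D3:**
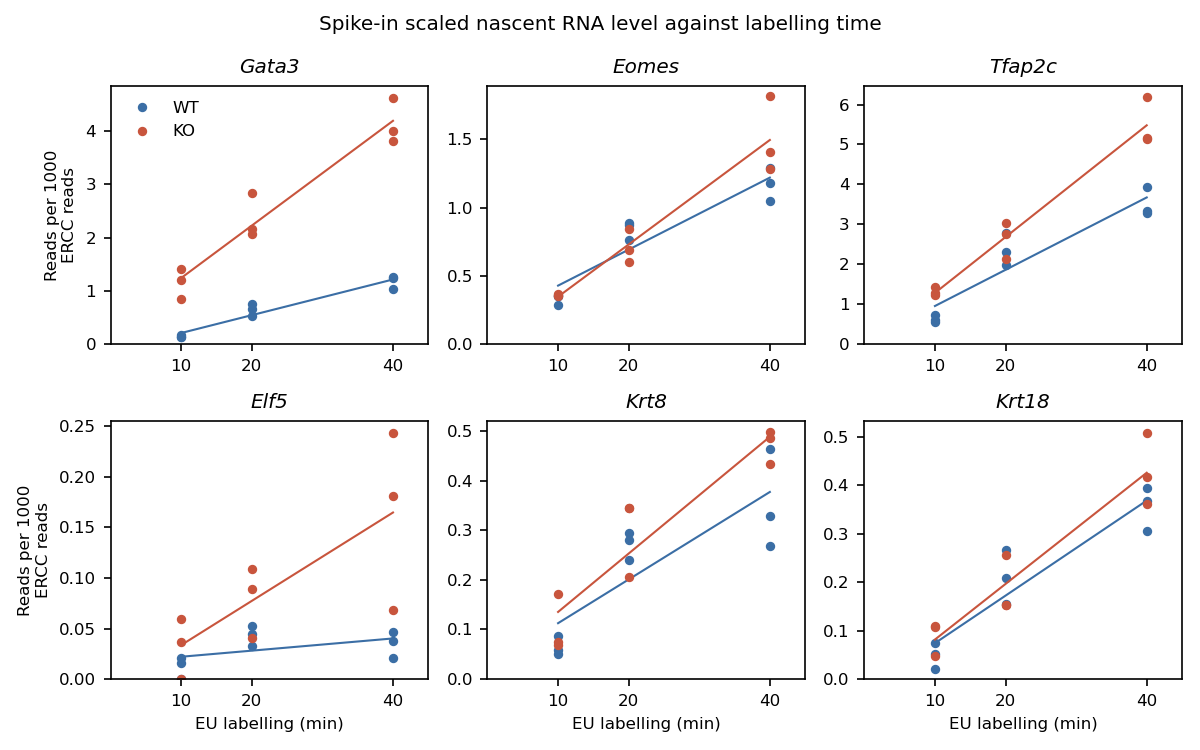
Reads per 1000 ERCC reads (vertical axis, from 0, with its own range for each gene) against minutes of EU labelling for the 6 markers that passed the filter, with a point for each library and the least squares line of each genotype, WT in blue and *Tet2*-KO in red. The *Gata3* lines have slopes of 0.0335 and 0.0983, while the *Eomes* lines cross between 10 and 20 min.

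The genes around the 8 markers were taken from lists of related genes and are given in share, averaged over the times. Each count stands beside 24.6% of all genes tested called higher and 32% lower in share, with a median of -0.037, and 80.5% higher and 4.15% lower per ERCC read. Among 14 genes of the Hippo and Notch inputs, 5 were called higher, 5 lower and 4 neither (median 0.0085), and 13 were higher per ERCC read. *Tead4*, the factor that the trophectoderm needs, had 106 to 137 RPM in WT and 82.6 to 96.6 in *Tet2*-KO, a log2 fold change of -0.46 (SE 0.022). *Notch1*, the receptor, was also lower, at -0.38 (SE 0.032), while *Amotl1*, an angiomotin that holds YAP1 in the cytoplasm, was higher at 0.64 (SE 0.024). *Yap1* (0.24), *Tead1* (0.28), *Tead2* (0.13) and *Rbpj* (0.051), among the partners through which both pathways act on DNA, were also higher. The partners *Tead3* (-0.016, adjusted p = 0.876) and *Wwtr1* (-0.031, adjusted p = 0.211) were not called. *Amot* (-0.53), *Nf2* (-0.26) and *Lats1* (-0.19) of the Hippo cascade were lower. Per ERCC read *Tead4* (0.27) and *Notch1* (0.35) were called higher, under the 0.70 of the median gene. Of 10 repressors of the trophoblast programme, 9 were tested, 6 were higher and 1 lower, with changes of at most 0.19. *Rnf2* (0.19), *Trim28* (0.17) and *Suz12* (0.11), of the Polycomb and KAP1 complexes, had the largest changes among those whose genotypes do not overlap at any time, and *Nanog* was the lower one at -0.12. *Sox2* was listed at 0 in each library, as were 451 of 452 protein-coding genes that lie wholly inside another gene on the same strand.

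Of 20 other trophoblast stem cell genes, 18 were tested, with 6 called higher, 10 lower and 2 neither (median -0.10), beside 24.6% and 32% of all genes. The 3 largest changes of the named kind, genes whose genotypes do not overlap at any time, were all higher. Among the 10 lower, *Gata2* was at -0.97 (SE 0.21), also without overlap. *Rhox6*, whose genotypes overlapped in part, was at -1.11 (SE 0.32). *Sox21*, a SOX factor also known from neural progenitors, had 0.865 to 2.42 RPM in WT and 4.41 to 9.15 in *Tet2*-KO (log2 2.22, SE 0.12). *Tfap2a*, the AP-2 factor of surface ectoderm and neural crest, had 2.96 to 5.98 and 11.6 to 15.5 (log2 1.56, SE 0.086). *Ddah1*, an enzyme that breaks down dimethylarginine, had a log2 fold change of 0.98 (SE 0.019). *Dlx3* and *Ly6a* did not pass the filter. Of 15 genes of differentiated trophoblast, 5 were tested, with *Peg10* higher at 0.70 (SE 0.040), *Plac1* lower at -1.02 (SE 0.17), *Phlda2*, an imprinted growth restrictor, lower at -1.13 (SE 0.29), and 2 not called. *Prl3d1*, *Prl3b1*, *Prl2c2*, *Tpbpa*, *Ctsq*, *Synb* and *Hsd3b6*, the hormones, proteases and syncytin of the placenta among them, had at most 3 reads in any library.

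Of 19 epithelial genes of the trophectoderm, 18 were tested, and 12 were called lower and 6 higher in share, with a median of -0.38, beside 32% and 24.6% of all genes and a median of -0.037. *Krt19*, another keratin of the blastocyst wall, fell most, from 0.475 to 1.12 RPM in WT to 0.0494 to 0.311 in *Tet2*-KO (log2 -2.55, SE 0.33). It held 9 to 24 reads in WT libraries and 1 to 7 in *Tet2*-KO, where the median of 3 was at the floor used here. With a minimum count of 10, *Krt19* passed the filter only through WT libraries, the group where it is high, so its calls cannot serve as support for a fall. *Dsp*, the desmosome plaque protein, was at -0.81 (SE 0.046) and *F11r*, a junctional adhesion molecule, at -0.73 (SE 0.036). Per ERCC read 11 of the 18 were higher and 1 lower, beside 80.5% and 4.15% of all genes, and the median of the list was 0.35 against 0.70 for all genes, so the direction of this list depends on the scale. *Krt19* alone was lower on both.

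**Figure D4:**
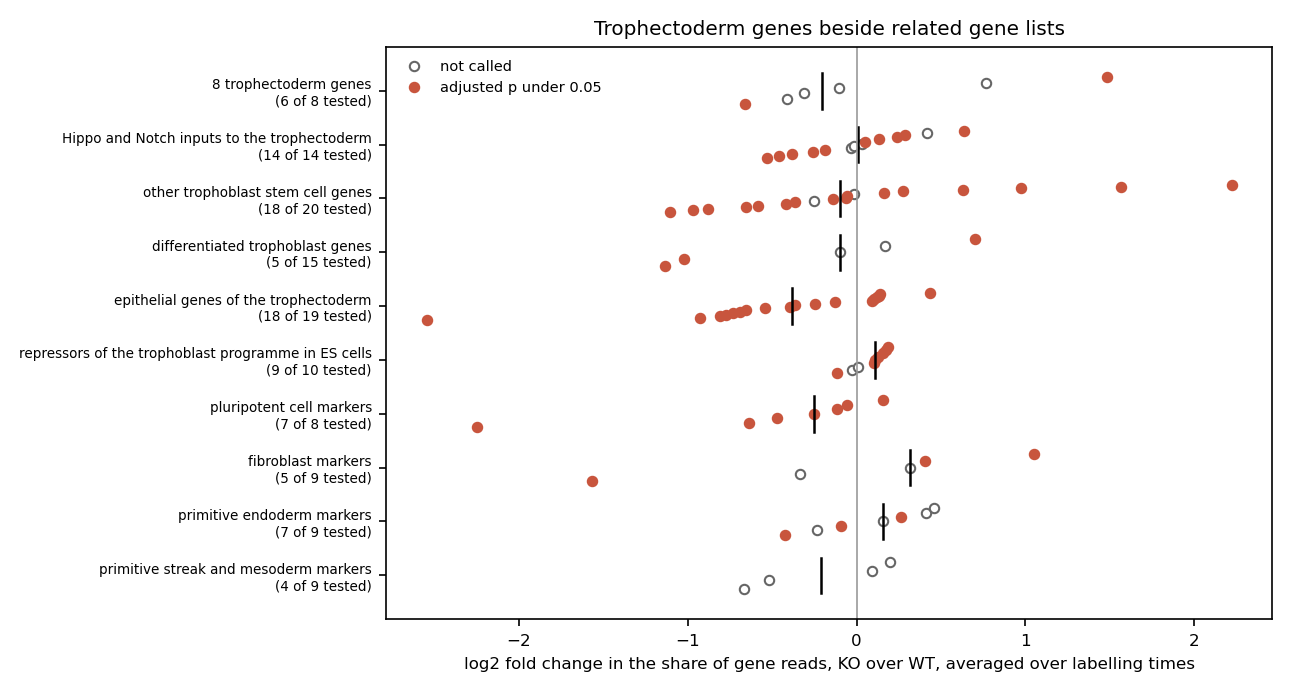
Log2 fold change in the share of gene reads, *Tet2*-KO over WT averaged over labelling times (horizontal axis), for each tested gene of the 8 trophectoderm markers and of 9 related lists, with filled points for adjusted p under 0.05 and a black bar at the median of each list. *Gata3* is the rightmost point of the top line at 1.49, and the epithelial genes have a median of -0.38 with *Krt19* at -2.55.

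Markers of other cell kinds moved in part with the genotype. Pluripotency genes were present in each library, with a summed 2872 to 3053 RPM in WT and 2093 to 2210 in *Tet2*-KO, where 6 of 7 tested were lower, beside 32% of all genes, and *Pou5f1* was higher at 0.16. *Zfp42* had the largest fall in share, a log2 fold change of -2.25 (SE 0.017), with *Klf4* at -0.64 and *Tfcp2l1* at -0.47. Per ERCC read, 5 of the 7 were called higher and 1 lower, beside 80.5% and 4.15% of all genes. The list median was 0.47 against 0.70 for all genes, so the direction of this list depends on the scale. *Zfp42* alone was lower on both, at -1.52 (SE 0.052) per ERCC read. Among 9 primitive endoderm markers, 7 were tested, with *Col4a1* higher at 0.26, *Gata4* lower at -0.42 (SE 0.097), *Lama1* lower at -0.090 and 4 not called, and their sums were 228 to 292 in WT and 213 to 290 in *Tet2*-KO. Of 9 fibroblast markers, 5 were tested, and *Pdgfrb* was lower at -1.57 (SE 0.11). The averaged values of *Col1a1* (0.40) and *Col3a1* (1.05) also passed, but they combine times of opposite sign. *Col1a1* had -1.19 at 10 min, 2.05 at 20 min and 0.34 at 40 min (adjusted p = 0.183), and *Col3a1* had -0.84 (adjusted p = 0.0919), 2.34 and 1.65. Per ERCC read their 10 min values were -0.16 (adjusted p = 0.466) and 0.21 (adjusted p = 0.663). The summed reads of the 8 trophectoderm markers were 26.1 to 31.5 in WT and 28.5 to 33.9 in *Tet2*-KO. The part of other cell kinds in the *Gata3* difference was not tested.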

How the data were processed

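The authors trimmed the reads of the 18 nascent RNA libraries (Trimmomatic 0.39), aligned them with HISAT2 2.2.1 to mm10, with GENCODE M19 and ERCC sequences, counted them per gene (HTSeq 0.12.4) and deposited raw counts. The feature type, strand and overlap settings are not given in the sources used here. Of protein-coding genes inside another gene, 99.78% were at 0 on the same strand and 11.34% on the opposite strand, from which it was inferred that strand was used.

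Of 54446 genes, 54409 were found in GENCODE M21. Genes were kept by filterByExpr (minimum count 10, 19910 genes) and tested with edgeR 4.0.16 in R 4.3.3 in one fit over 6 groups, with ERCC reads or gene reads as library size and Benjamini-Hochberg adjustment at 0.05. The procedure was tested on simulated data. DESeq2 1.42.0, TMM, other filters, a replicate block, single times and left-out libraries were alternatives. Members and lists were chosen with earlier results of these data known. Up to 3 genes per list are named, those with the largest called change in share and no overlap of genotypes at any time. Other genes of short counts were named after their values were seen. A rule to name genes of like pattern needed a mean of 1000 counts, which no member reached. Every pair of replicates differed by more than counting noise (mean chi-square per gene 1.62 to 5.26). The intervals of the summed ratios of *Cdx2* and *Hand1* and the floor of 3 counts cover counting error only. The intervals of log2 fold changes come from the edgeR fit and include the spread between replicates. Reads carry no molecular identifiers in these counts.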

Additional observations from a re-analysis of the deposited data

Results flagged for a closer look

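The difference between the genotypes in *Gata3* changed with labelling time by the test of the change itself, on both scales. Per ERCC read the log2 fold change of *Tet2*-KO over WT was 2.98 at 10 min and 1.81 at 40 min, a change of -1.16 (SE 0.24, adjusted p = 0.000209, edgeR), and in share it was 1.94 and 1.13, a change of -0.81 (SE 0.23, adjusted p = 0.0221). The share value was -0.95 to -0.68 when each library was left out in turn, and its call was lost in 4 of the 18 fits. Per ERCC read, 19.3% of all genes were called lower in this change, with a median of -0.29.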

How the results depend on the processing

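Of the values of single genes recomputed under alternatives, 877 kept their direction and side of the threshold, 42 lost a call, 4 gained one and 3 changed sign, and of the counts of markers called, 366 stayed within 1.5 times and 15 did not. The changes of sign came from fitting a labelling time alone, with *Eomes* at -0.24 and *Krt18* at -0.16 per ERCC read at 20 min and *Tfap2c* at 0.032 in share at 10 min. Per ERCC read, the 4 markers called higher on average became 2 at 10 min alone and 1 at 20 min alone, and the 4 called at 10 min became 2 with DESeq2 and 2 without a filter on low counts. Leaving out each library gave 2 to 5 called at 10 min, the 2 without WT replicate 1 or *Tet2*-KO replicate 1 at that time. In share, markers called higher numbered 2 at 40 min alone, and lower 2 at 20 min alone and 0 at 40 min alone by edgeR, where 0 were also lower in the joint fit at an unadjusted p under 0.05. Leaving out a library gave 1 to 2 lower, the 2 without WT or *Tet2*-KO replicate 1 at 10 min. The number whose difference changed with time was 1 to 2 per ERCC read, 2 without WT replicate 2 at 10 min, and 0 to 1 in share. *Gata3* stayed at 1.81 to 2.98 per ERCC read over the other settings and *Elf5* at 0.83 to 2.19. Replicate numbers did not pair libraries, with correlations of deviations of -0.092 to 0.090 for the same number and -0.107 to 0.141 for different numbers, and with the replicate block 3 markers were higher per ERCC read in place of 4, since *Krt8* (0.40) was no longer called, with 1 higher and 1 lower in share. With under 10 reads in most libraries, *Cdx2*, *Hand1* and *Elf5* are limited by depth. The causes of these shifts were not tested.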
